A study of Mus musculus with 6 samples.

Results

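Cytosolic ribosomal protein genes were examined in iWAT, the inguinal white fat under the skin, of *Hlx* transgenic (TG) and wild-type (WT) littermate mice. The members were the rows of the deposited gene table with a symbol made of Rpl or Rps and a digit, together with *Rplp0*, *Rplp1*, *Rplp2* and *Rpsa*, and without the ribosomal S6 kinases. The rule found 88 of 19445 rows. RNA-Seq had been run on 3 TG and 3 WT males, 12 weeks old, 1 library a mouse. In TG mice an *Hlx* cDNA was driven by the *aP2* (*Fabp4*) promoter, which is active in adipocytes and can also act in other cells such as macrophages. Embryos for the transgene came from C57BL/6 × SJL hybrid mice and the lines were backcrossed to C57BL/6, WT littermates carried no transgene, and neither group was treated. Which transgenic line was sequenced is not given in the sources used here. *Hlx* stood at 110, 79.6 and 99.5 FPKM in the 3 TG mice and at 6.88, 7.35 and 8.14 FPKM in the 3 WT mice, so the libraries carried the genotypes of their labels. FPKM is the number of fragments per kilobase of transcript, scaled to the mapped reads of the library.

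A cytosolic ribosome joins a large subunit, which forms peptide bonds, and a small subunit, which reads the mRNA. Each ribosomal protein is present in about 1 copy a ribosome, apart from the paired P1 and P2 proteins of the stalk. Their mRNAs are among the most abundant of a cell and typically start with a C followed by a run of pyrimidines, the 5′ terminal oligopyrimidine or TOP tract, through which mTOR signalling controls their translation. Many have numerous processed pseudogenes, and a few have paralogs with a tissue preference.

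Of the 88 rows, 75 carried a canonical ribosomal protein, 45 of the large and 30 of the small subunit. No row was found under the symbols *Rpl30* and *Rps16*. A further 8 rows were paralogs, of which *Rps4y2* is annotated as a transcribed processed pseudogene, and 5 were listed apart. These 5 were the pseudogenes *Rps15a-ps4*, *Rps15a-ps6*, *Rps19-ps3* and *Rpl31-ps12*, and *Rps19bp1*, which codes for a protein that binds Rps19 and is not a subunit of the ribosome. Fat identity was present in every mouse, with summed FPKM of 6 adipocyte markers from 25260 to 35610. Most of that sum was *Fabp4*, at 19297 to 29363 FPKM, and *Adipoq* ran from 1279 to 2911 FPKM. Depth in reads is unknown because the table holds FPKM only, with column totals from 466059 to 542096.

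The word searched for was CTTTC, on the strand of the gene. The window ran from 10 bases before to 50 bases after each start site in RefSeq (GRCm38.p6). CTTTC could lie anywhere in it and a C at the start was not required, so a match need not be a TOP tract. RefSeq entries matched 65 of the 88 members through 77 start sites. CTTTC was present at 40.3% of those 77 start sites, at 7.30% of all 32851 and at 8.0% of 75 start sites of mitochondrial ribosomal proteins. On the other strand, where it reads GAAAG, the shares were 9.09% for members and 7.76% for all. The whole window from 250 bases before to 50 after the start was also searched for the words of 10 bases held by the largest number of member genes. Of these words, chosen for that count, 2 were each held by 6 member genes. The palindrome TCTCGCGAGA lay at 9.09% of member start sites and 0.466% of all, and CGTCACTTCC at 7.79% and 0.323% on the strand of the gene and at 1.30% and 0.402% on the other, where it reads GGAAGTGACG. Neither overlaps CTTTC in its letters. The windows shown are those of members called lower in TG that held a match (*Rpl13a*, *Rpl19*, *Rpl38*, *Rps21* and *Rps28*) and of the paralog *Rpl39l*, so that the start of a gene that was lower can be set beside that of one that was not. Capitals mark CTTTC in the first 5, CGTCACTTCC in the upstream window of *Rpl13a* and TCTCGCGAGA in *Rps28*. In the first 5, in the order shown, CTTTC begins at positions 9, 34, 0, 38 and -6 from the start.
Rpl13a, chr7:45128717-45128746, minus strand: agacctcctcCTTTCccaggcggctgccga
Rpl19, chr11:98026944-98026973, plus strand: gcggcccacaagctCTTTCctttcgctgct
Rpl38, chr11:114668570-114668599, plus strand: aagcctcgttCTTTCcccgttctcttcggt
Rps21, chr2:180257399-180257428, plus strand: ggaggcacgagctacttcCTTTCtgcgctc
Rpl39l, chr16:10170212-10170241, plus strand: gctcccaggcCTTTCcggatttccggtggt
Rpl13a upstream, chr7:45128774-45128803, minus strand: gagccgtctgCGTCACTTCCtccgcccctg
Rps28, chr17:33824544-33824573, minus strand: ccgcgtgcggTCTCGCGAGAgcgaaagtga
A match is a stretch of letters and not a measured site. Among tested members with an entry, those with CTTTC had a median log2 fold change of -0.13 (n = 28) and those without it -0.18 (n = 34).

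In TG iWAT no member was called higher and 13 were called lower, 12 canonical genes and the pseudogene *Rps15a-ps6*. Of the 88 members, 84 passed the filter, a mean over 1 FPKM in at least 1 genotype. *Rpl5*, *Rpl23a*, *Rpl10l* and *Rpl31-ps12* did not. The 13 made up 15.5% of the tested members, against 7.03% of all 11692 tested loci called lower and 11.6% called higher (limma on log2(FPKM + 1), two-sided, adjusted p under 0.05 over all tested loci). Leaving out 1 mouse at a time gave between 3 and 16 lower calls. Without WT 1, WT 2, WT 3, TG 1 and TG 3 the count was 3, 4, 6, 5 and 3. At an unadjusted p under 0.05, 33 members were lower and 1, *Rpl39l*, was higher. Of all 11692 tested loci, 1963 were lower and 2267 higher at that threshold.

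The fitted change was negative for 60 of the 84 members, with a median log2 fold change of -0.22, against -0.01 over all tested loci. The median of members was -0.14 without those on overlapping loci and -0.40 with quantile normalization. Every TG value lay below every WT value at 38 members, a pattern seen at 20.1% of all tested loci. Every TG value lay above every WT value at 2, *Rpl39l* and *Rpl3l*, against 22.8% of all tested loci. Members of 1 complex are not independent replicates of one another, and in bulk tissue fewer cells of a type and less RNA per cell cannot be told apart.

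The lowest fold change belonged to *Rps28*, a protein of the head of the small subunit near the path by which mRNA leaves the ribosome. Its level was 8.12e-06, 0.947 and 0.000128 FPKM in TG and 9.42, 13.7 and 7.0 FPKM in WT. TG 1 and TG 3 were close to 0, TG 2 was under 1 FPKM, and no WT mouse came near them. The log2 fold change was -3.10 ± 0.32 (SE, n = 3 a genotype, adjusted p = 0.00166), and it was called in all 14 alternative fits. With a pseudocount of 0.1 it was -5.48 (adjusted p = 0.00794), so its size depends on that choice. The row shares a deposited locus, chr17:33823037-33838367 (mm10), with *Ndufa7*, a complex I gene. *Ndufa7* stood at 371, 305 and 315 FPKM in TG and 248, 238 and 188 in WT, which gave 0.56 ± 0.14 on the log2 scale (SE, adjusted p = 0.0362). At this locus the more abundant gene was thus higher and *Rps28* lower in TG. How Cufflinks divided the reads of the locus between both genes cannot be seen from FPKM, and its part in the *Rps28* value was not tested.

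*Rps15a-ps6*, a pseudogene of *Rps15a*, was also called in all 14. Its values were 13.3, 14.3 and 15.3 FPKM in TG and 20.9, 19.3 and 20.4 in WT, with a log2 fold change of -0.47 ± 0.08 (SE, adjusted p = 0.00941). The row lies within the locus of *Nudcd3*, which was 23.4 ± 3.21 FPKM in TG and 20.5 ± 0.972 in WT (SD, n = 3). Its parent *Rps15a* was 551 ± 43.5 in TG and 647 ± 51.0 in WT (SD, n = 3, adjusted p = 0.21). All 3 TG values lay below the WT values for the pseudogene and the parent alike.

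**Figure D1:**
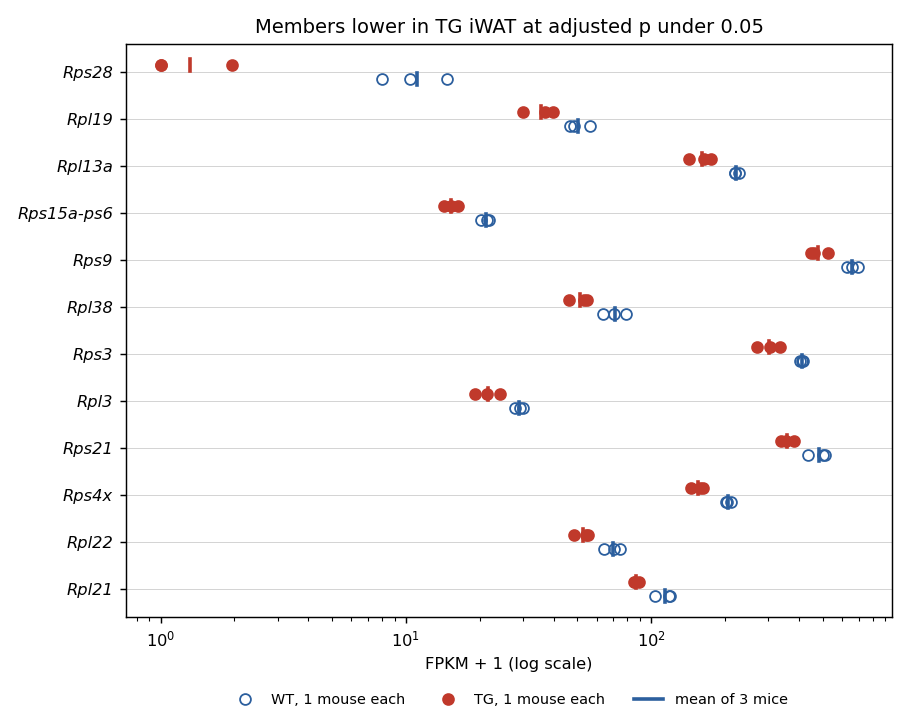
FPKM + 1 on a log axis of 12 of the 13 members called lower in TG, with 3 TG mice (filled red) and 3 WT mice (open blue) a gene and vertical ticks at the group means. The groups do not overlap at any of the 12. For *Rps28*, TG 1 and TG 3 sit close to 1 on this axis, that is close to 0 FPKM, and TG 2 is at 0.947 FPKM.

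A further 10 calls were of modest size, with log2 fold changes from -0.51 to -0.39, and each was lost in some alternatives. Of the large subunit they comprised *Rpl3*, which lies by the catalytic centre, *Rpl13a*, *Rpl21* and 3 genes of the rim of the peptide exit tunnel. *Rpl13a* measured 141, 174 and 163 FPKM in TG and 219, 227 and 219 in WT, with a log2 fold change of -0.48 ± 0.10 (SE, adjusted p = 0.0220). *Rpl21* was 87.9, 84.6 and 84.3 in TG and 118, 103 and 118 in WT (log2 fold change -0.39, adjusted p = 0.0241). *Rpl3* was 18.1, 23.2 and 20.4 in TG and 29.1, 28.1 and 26.7 in WT (log2 fold change -0.43, adjusted p = 0.0290). In these 3 genes the WT mice were close together and every TG mouse was lower.

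Around the exit tunnel, where the nascent chain leaves, *Rpl19*, *Rpl22* and *Rpl38* were called. *Rpl19*, which also contacts the small subunit, was 29.1, 38.7 and 35.9 FPKM in TG and 55.1, 47.3 and 45.7 in WT (log2 fold change -0.51, adjusted p = 0.0349). *Rpl22*, known for a role in T cell development, was 47.5, 54.2 and 53.1 in TG and 73.3, 69.7 and 63.1 in WT (log2 fold change -0.41, adjusted p = 0.0265). *Rpl38*, whose loss in mice alters the axial skeleton, was 45.2, 52.4 and 53.7 in TG and 78.1, 69.5 and 62.8 in WT (log2 fold change -0.47, adjusted p = 0.0300). TG 1 was the lowest mouse for each of these genes, and WT 1 the highest. The deposited locus of *Rpl38* reaches over *Ttyh2* and *Dnaic2*.

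In the small subunit *Rps4x*, *Rps9*, *Rps21* and *Rps3* were called beside *Rps28*. *Rps4x*, the X-linked copy, was 144, 157 and 161 FPKM in TG and 203, 210 and 201 in WT (log2 fold change -0.41 ± 0.09, SE, adjusted p = 0.0205). *Rps9* was 445, 526 and 461 in TG and 693, 659 and 626 in WT (log2 fold change -0.47, adjusted p = 0.0332). *Rps3*, which lines the mRNA entry channel, was 269, 333 and 305 in TG and 403, 411 and 415 in WT (log2 fold change -0.44, adjusted p = 0.0350). *Rps21* was 354, 381 and 336 in TG against 510, 499 and 433 in WT (log2 fold change -0.43, adjusted p = 0.0418). For these 4 the TG mean was between 0.724 and 0.753 of the WT mean on the FPKM scale, with no overlap. With quantile normalization their log2 fold changes lay between -0.80 and -0.66, and that of *Rpl13a* was -0.74.

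By place in the ribosome, the medians of all 6 mice were negative in each subgroup of canonical members. In the body of the small subunit 16 of 17 members were negative, with a median of -0.24 and 3 lower calls. In its head 11 of 13 were negative, with a median of -0.24 and 2 lower calls. The rim of the exit tunnel had 3 lower calls among 8 tested and a median of -0.31. That median was -0.47 without WT 3, -0.21 without WT 2, -0.21 without TG 1 and -0.20 with no filter on low values. The rest of the large subunit had 4 among 30, with a median of -0.25 and 21 negative. The stalk and its base had no call among 4 and a median of -0.12, which was -0.03 without TG 1, -0.22 without TG 2 and -0.20 without WT 1. Of the 5S particle *Rpl11* alone was tested, and its fold change of -0.05 turned to 0.04 without WT 2. Over all tested loci 7.03% were called lower, and no difference between subgroups was tested.

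The stalk recruits elongation factors to the ribosome. *Rplp1*, the second most abundant member, was 1072, 1417 and 1280 FPKM in TG and 1654, 1494 and 1456 in WT (log2 fold change -0.30 ± 0.16, SE, adjusted p = 0.21). *Rplp0*, which anchors the stalk, was 355 ± 42.9 in TG and 442 ± 55.7 in WT, and its partner *Rplp2* was at a log2 fold change of 0.06 (adjusted p = 0.82). *Rpl5* and *Rpl11*, which carry the 5S rRNA into the large subunit and bind Mdm2, were listed at very low values. Both share sequence with pseudogenes, so these values are uncertain as levels. *Rpl5* was 0.524, 0.391 and 0.359 FPKM in TG and 0.636, 0.618 and 0.747 in WT, below the filter, and *Rpl11* was 1.81 ± 0.158 in TG and 1.91 ± 0.322 in WT (SD, n = 3, log2 fold change -0.05).

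**Figure D2:**
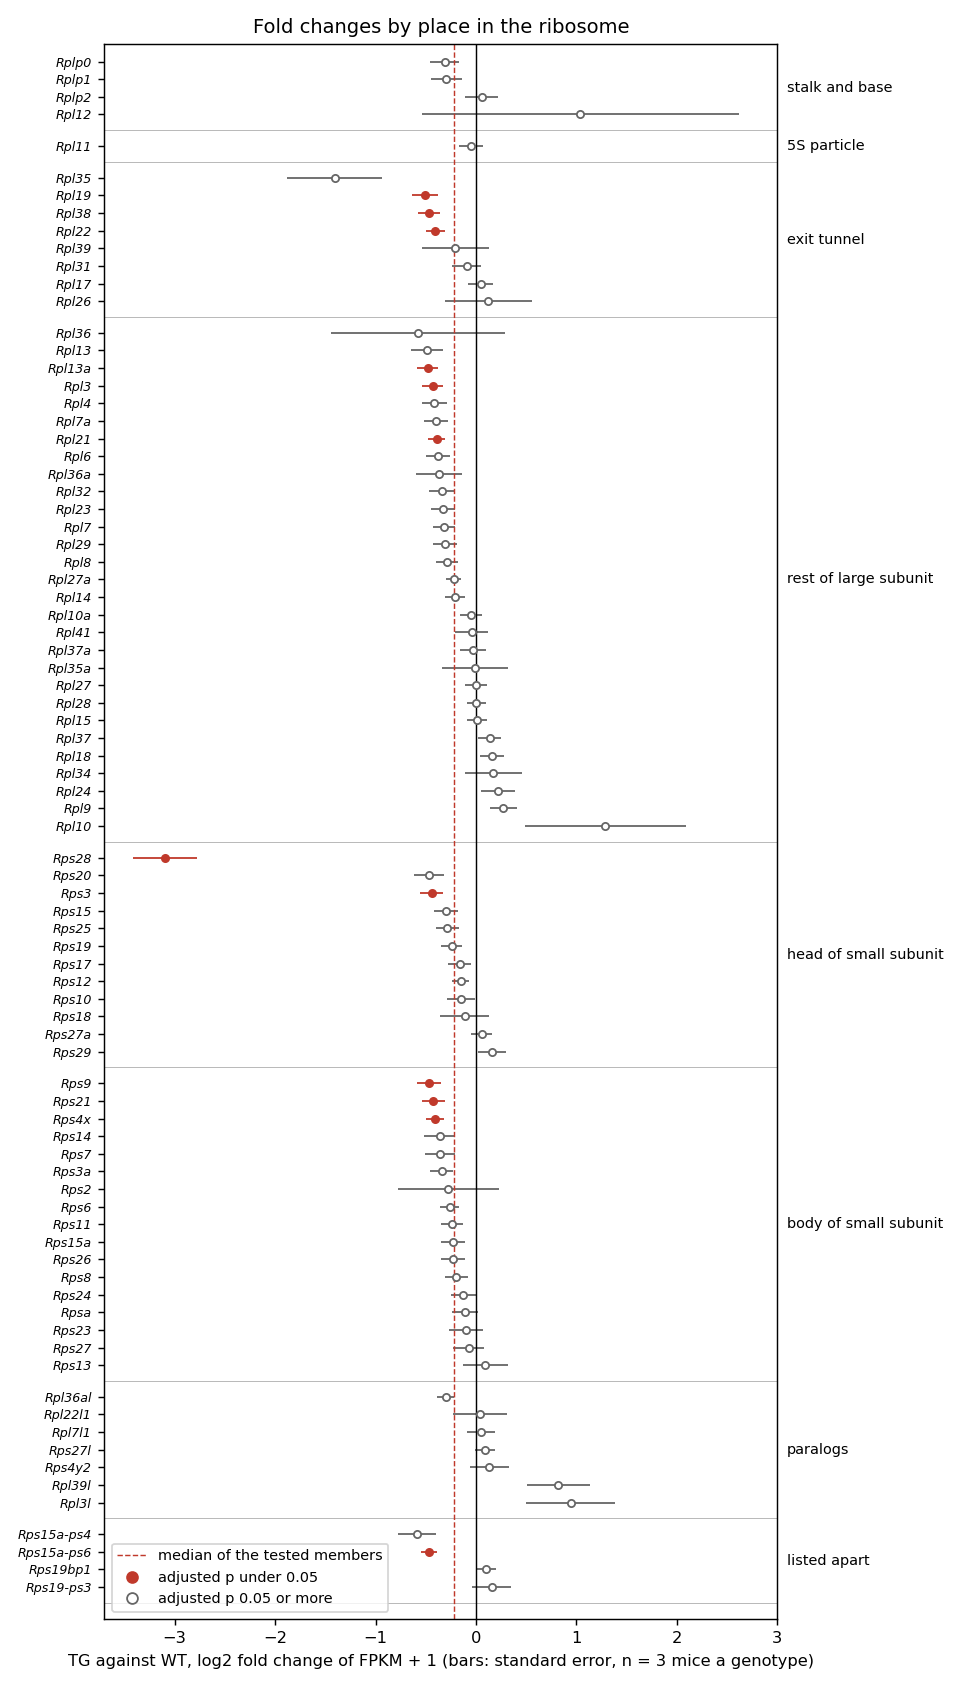
Log2 fold change of FPKM + 1, TG against WT, of 82 of the 84 tested members by place in the ribosome, with standard errors (n = 3 mice a genotype). Filled red points have an adjusted p under 0.05, all 12 lie left of 0, and the dashed line is the median of the members, -0.22.

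A further 20 members had an unadjusted p under 0.05 and a negative fold change without passing the adjusted threshold, with adjusted p from 0.0511 to 0.13. Of the large subunit, *Rpl4*, which reaches into the exit tunnel, was 571, 691 and 623 FPKM in TG and 805, 818 and 886 in WT (log2 fold change -0.41, adjusted p = 0.0577). *Rpl7a* was 101, 133 and 118 in TG and 161, 146 and 156 in WT (log2 fold change -0.40, adjusted p = 0.0559), and *Rpl6* was 59.6, 81.0 and 68.4 against 93.8, 88.8 and 87.8 (adjusted p = 0.0689). For all 3 genes TG 1 was the lowest mouse and no TG value reached a WT value. *Rps6*, the substrate of the S6 kinases, was 6.25, 7.29 and 7.12 in TG and 8.84, 7.66 and 8.89 in WT (log2 fold change -0.26, adjusted p = 0.0935), also without overlap. *Rps3a* was 208, 226 and 236 in TG and 317, 254 and 281 in WT (log2 fold change -0.34, adjusted p = 0.0780). *Rpl29* and *Rps7* were the members of this kind whose genotypes overlapped.

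Other members differed little in mean between genotypes. *Rpl27* was 5.23 FPKM in TG and 5.25 in WT on average, *Rpl28* was 6.53 and 6.49, and *Rpl15* was 8.28 and 8.19. *Rps27a*, which codes for a ribosomal protein fused to ubiquitin, was 3.14 ± 0.365 in TG and 2.97 ± 0.197 in WT (SD, n = 3, log2 fold change 0.06). The standard errors of these 4 log2 fold changes lay between 0.097 and 0.11, and all 4 genes lay under 20 FPKM.

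The most abundant members shared a sign, although most did not pass the test. All 21 members at a mean of 200 FPKM or more had a negative fold change, with a median of -0.30, and 3 were called lower. Of all 357 tested loci at that level 137 were negative, 31 were called lower and the median was 0.22. Between 20 and 200 FPKM, 22 of 31 members were negative with a median of -0.29, and all loci had a median of 0.03. Under 20 FPKM, 17 of 32 members were negative with a median of -0.04, close to the -0.03 of all loci. The limits of 20 and 200 FPKM were chosen after the values were seen.

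The top of the range shows both sides of this. *Rpl41*, coding for the smallest ribosomal protein and the most abundant member, was 1488, 1831 and 1515 FPKM in TG and 1748, 1799 and 1431 in WT, with overlapping groups (log2 fold change -0.04, adjusted p = 0.88). *Rps20*, of the small subunit head, was 662, 912 and 805 in TG and 1125, 1068 and 1080 in WT (log2 fold change -0.47 ± 0.15, SE, adjusted p = 0.0687). The groups of *Rps20* did not overlap, but the TG mice spread over more than 200 FPKM. *Rps15* was 936 ± 50.7 in TG and 1152 ± 65.7 in WT (SD, n = 3, log2 fold change -0.30, adjusted p = 0.13), again without overlap of the groups. Its row shares a deposited locus with 40 other rows, *Bsg* and *Ptbp1* among them.

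**Figure D3:**
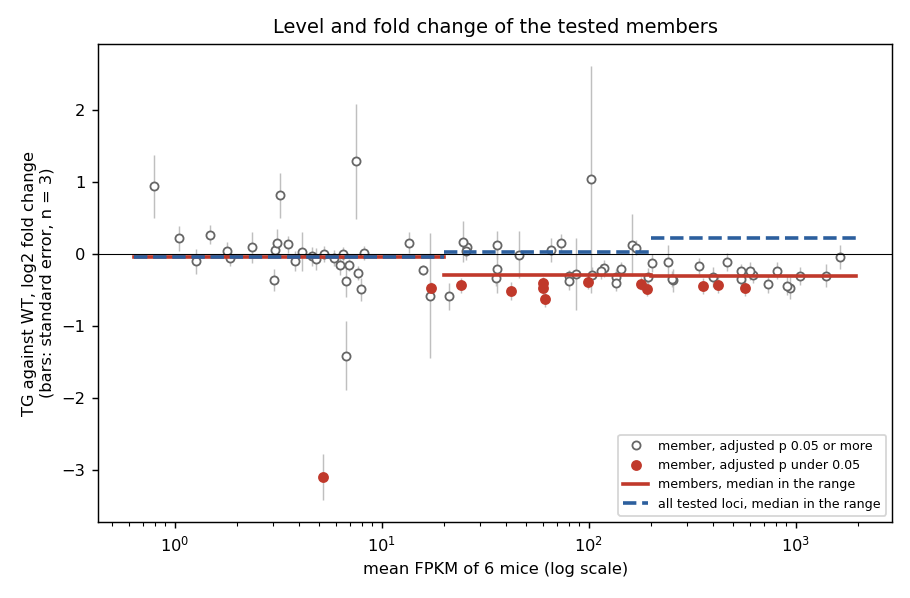
Log2 fold change (bars, SE, n = 3 a genotype) against the mean FPKM of the 6 mice on a log axis for the 84 tested members. Red lines are the medians of members and dashed blue lines those of all tested loci in 3 ranges of level; the lines coincide under 20 FPKM and part above it, with -0.30 against 0.22 at 200 FPKM or more.

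Summed over all 88 rows, ribosomal protein genes carried 2.49%, 3.12% and 2.88% of all FPKM in TG (2.83% ± 0.318, SD, n = 3) and 3.47%, 3.81% and 3.68% in WT (3.65% ± 0.170, SD, n = 3). The groups did not overlap, and the difference was -0.821 percentage points. Without the 29 members whose locus overlaps another row it was -0.508 points, from smaller mean shares of 1.93% in TG and 2.44% in WT. With the 100 highest other loci removed from the denominator it was -1.42 points, with shares of 3.78% to 4.71% in TG and 5.58% to 5.84% in WT. These sums are given as values with no test.

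TG 1 held the lowest share, and markers of other cells moved with genotype too. Of 16 lymphocyte markers all had negative fold changes and 1 was called lower, with summed FPKM from 588 to 834 in TG and 763 to 1082 in WT, and TG 1 the lowest. Of 7 macrophage markers 4 were called lower, with sums from 358 to 510 in TG and 754 to 955 in WT. Of 5 endothelial markers 2 were called higher and 2 had negative fold changes, with sums from 140 to 148 in TG and 124 to 134 in WT. None of 6 epithelial and 5 progenitor markers was called, but all 6 epithelial markers (median -0.33) and 4 progenitor markers (median of the 5, -0.15) had negative fold changes. Of 6 adipocyte markers 4 had a positive fold change and 1 was called lower. This was *Adipoq*, at 1363 ± 89.0 FPKM in TG and 2481 ± 415 in WT (SD, n = 3). The shares over all tested loci were 11.6% called higher and 7.03% lower. The part of other cell types in the ribosomal protein values was not tested.

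Among the paralogs 6 of 7 tested had a positive fold change and the median was 0.09, though none was called and no test against the canonical genes was made. The median was 0.23 without WT 2 and turned to -0.03 without WT 3, and it was 0.0063 with sample quality weights. *Rpl39l*, a paralog of *Rpl39* known from testis, was 4.67, 5.57 and 2.82 FPKM in TG and 2.60, 2.80 and 0.881 in WT. Its groups just failed to overlap, since TG 3 and WT 2 were nearly equal (log2 fold change 0.82 ± 0.31, SE, adjusted p = 0.11). Without WT 3 its fold change was 0.50. *Rpl39* itself lay between 23.8 and 61.6 FPKM in all 6 mice (log2 fold change -0.20, adjusted p = 0.69).

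*Rpl3l*, the paralog of *Rpl3* in striated muscle, was 0.504, 3.50 and 0.418 FPKM in TG and 0, 0.35 and 0 in WT (log2 fold change 0.94 ± 0.44, SE, adjusted p = 0.17). The value of TG 2 stood far above the rest, and with a pseudocount of 0.1 the fold change was 2.66 (adjusted p = 0.10). In the same library the summed FPKM of 7 skeletal muscle markers was 828, against 206 to 334 in the other 5 mice. None of the 7 was called, 6 had a positive fold change (median 2.17), and *Myh4* was the 1 marker with a 0 in some library. The row of *Tnnt3* also lists *Lsp1* and held 163, 333 and 177 FPKM in TG and 200, 239 and 254 in WT. It thus made up 200 of the 206 FPKM in WT 1, so the sums understate how the other markers differed between mice. Muscle RNA in the library of TG 2 was thus measured beside *Rpl3l*, and its part in the value was not tested.

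*Rpl36al*, an autosomal copy of *Rpl36a*, was the exception among paralogs, at 68.4, 75 and 71.2 FPKM in TG and 84.4, 95.7 and 85.5 in WT (log2 fold change -0.30 ± 0.09, SE, adjusted p = 0.0511). It fell just short of the threshold, with no overlap. *Rps27l*, a p53 target paralogous to *Rps27*, was 175 ± 13.6 in TG and 165 ± 12.9 in WT (SD, n = 3, log2 fold change 0.09), and this sign turned to -0.15 with quantile normalization. *Rps4y2*, *Rpl7l1* and *Rpl22l1* had log2 fold changes of 0.13, 0.05 and 0.04, and *Rpl10l* was listed at 0 in all 6 mice. The row of *Rps4y2* shares a deposited locus with *Far2*, *Ergic2* and *Tmtc1*. In *Rps15a-ps4*, the other *Rps15a* pseudogene, TG was 16.6 ± 1.85 and WT 25.9 ± 6.72 FPKM (SD, n = 3, log2 fold change -0.59 ± 0.19, SE, adjusted p = 0.0692).

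A number of members varied within a genotype by more than any difference between genotypes. At 14 tested members the highest mouse of a genotype was at least 2 times the lowest, against 9.35% of all tested loci. *Rpl12*, at the base of the stalk, was 159, 6.38 and 253 FPKM in TG and 5.25, 33.6 and 159 in WT, so that low and high mice occurred in both genotypes (log2 fold change 1.04 ± 1.58, SE, adjusted p = 0.67). Its sign reversed without WT 1. *Rpl10*, which joins the large subunit late in its assembly, was 32.5, 2.32 and 3.37 in TG and 1.92, 2.58 and 2.18 in WT, and 1 mouse, TG 1, carried the fold change of 1.29 ± 0.80 (SE, adjusted p = 0.28), which was 0.24 without that mouse.

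*Rpl36* was 4.12, 20.2 and 11.4 FPKM in TG and 3.33, 24.3 and 39.8 in WT (log2 fold change -0.58 ± 0.87, SE, adjusted p = 0.66). *Rpl35*, at the exit tunnel, was 2.14, 4.22 and 2.12 in TG and 6.32, 5.05 and 20.6 in WT (log2 fold change -1.41 ± 0.47, SE, adjusted p = 0.0804). Here the groups did not overlap, but WT 3 stood far above the other WT mice, and without it the fold change was -0.84 (adjusted p = 0.0973). The *Rpl35* locus overlaps *Wdr38*, at 0.516 ± 0.167 FPKM in TG and 0.429 ± 0.047 in WT (SD, n = 3), and its exons meet those of *Arpc5l* on the opposite strand, at 84.4 ± 5.45 in TG and 63.1 ± 3.07 in WT (SD, n = 3, log2 fold change 0.41, adjusted p = 0.0181). Libraries of this kit do not mark strand, so reads of such partners cannot be told apart.

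Members chosen after their values were seen show the same spread at higher levels. *Rpl26* was 92.2, 218 and 190 FPKM in TG and 103, 254 and 112 in WT. *Rps2*, with *Ndufb10* overlapping its locus, was 53.2, 143 and 45.2 in TG and 55.0, 148 and 75.4 in WT. TG 2 and WT 2 were the highest mice of their genotypes for both genes. *Rpl34* and *Rpl35a* ranged from 13.4 to 30.1 and from 29.7 to 71.8 FPKM over the 6 mice, and neither passed the test.

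**Figure D4:**
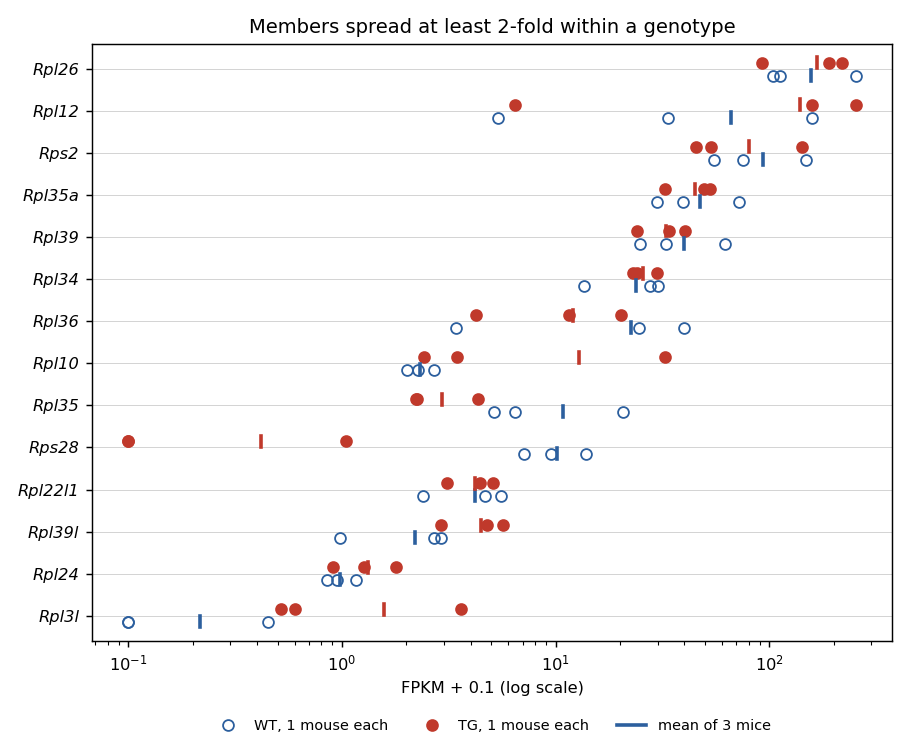
FPKM + 0.1 on a log axis of the 14 tested members whose highest mouse was at least 2 times the lowest within a genotype, with TG mice filled red, WT mice open blue and vertical ticks at the means. TG and WT overlap in most of them, with *Rpl35*, *Rps28*, *Rpl39l* and *Rpl3l* the exceptions.

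Canonical members, which enter the ribosome in near equal numbers, differed 2996-fold in mean level in FPKM, from *Rpl41* at 1635 to *Rpl5* at 0.546. Therefore 1 chosen transcript of each gene was compared with the annotated transcripts of other genes (GENCODE vM21, GRCm38). Windows of 100 bases, the length of a read, were used. Some chosen transcripts were long, with 5179 bases for *Rps15a* and 3706 for *Rps20*, and the unique share depends on that choice. Of the 75 canonical members, 68 shared at least 1 whole window with a pseudogene, and the median member had 65.2% of its windows found in no other gene. *Rps27* had 1.6% of its windows to itself and a mean of 4.81 FPKM, and *Rpl10* had 8.4% and a mean of 7.49 FPKM.

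Among canonical members with under 50% of windows unique (n = 27) the median level was 7.49 FPKM, and 17 lay under 20 FPKM. Among those with 50% or more (n = 48) the median was 125 FPKM, and 12 lay under 20 FPKM. Spearman's rho of unique share and level was 0.60 over the 75 genes, given as a description since they share libraries and quantification. Exceptions ran both ways. *Rpl7a*, with 26.5% unique windows and sequence in 37 pseudogenes, was at a mean of 136 FPKM. *Rpl5* had 52.8% unique windows over a chosen transcript of 2045 bases. The low values of *Rpl9*, *Rps23*, *Rpl24* and *Rpl23a*, between 0.708 and 1.49 FPKM on average, are uncertain as levels. Each shares windows with pseudogenes, although *Rps23* has 55.0% unique windows. The same holds for *Rpl5* and for *Rpl11*, which has 40.3% unique windows. How reads that fit several places were treated is not given in the sources used here, and its part in these levels was not tested.

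**Figure D5:**
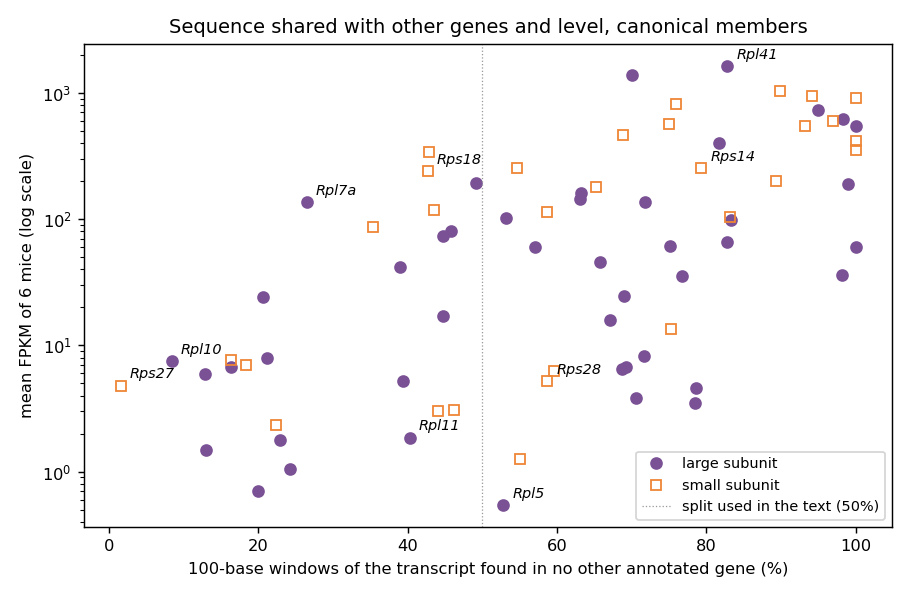
Mean FPKM of the 6 mice on a log axis against the percentage of 100-base windows found in no other annotated gene for the 75 canonical members, large subunit filled purple circles and small subunit open orange squares. Low levels are more frequent left of the dotted line at 50%, with medians of 7.49 FPKM left and 125 FPKM right of it.

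Lower calls occurred on both sides of that line. With members of 50% or more unique windows, 11 of 58 tested were called lower and the median was -0.24. Under 50%, 2 of 26 were called lower (*Rpl3* and *Rpl19*) and the median was -0.16. The shares called lower were 19.0% and 7.69%, the second near the 7.03% of all tested loci. By deposited coordinates 29 members overlap another row, 18 of them with a gene other than a small RNA, and 19 rows list a further symbol, most often a small nucleolar RNA hosted in an intron. Of the 13 called members 7 overlap another row, and without all overlapping members 6 calls remained, among them *Rps4x*, *Rpl21*, *Rpl22*, *Rps9* and *Rpl19*.

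Other genes known for TOP tracts had the sign of most canonical members. All 16 measured translation factors and related TOP genes had negative fold changes, with a median of -0.28, and 5 were called lower, *Eif3f*, *Nap1l1*, *Naca*, *Eif3h* and *Eef1d*. The share called lower over all tested loci was 7.03%. *Eif3f*, a subunit of the initiation factor eIF3, was 79.5, 96.1 and 84.2 FPKM in TG and 134, 118 and 113 in WT (log2 fold change -0.49 ± 0.11, SE, adjusted p = 0.0248). *Gnb2l1*, coding for Rack1 on the head of the small subunit, was 425, 551 and 492 in TG and 593, 641 and 633 in WT (log2 fold change -0.35, adjusted p = 0.0972). *Fau*, which encodes a ribosomal protein fused to a ubiquitin-like protein and falls outside the rule, was at -0.18 on the log2 scale and was not called.

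Of 30 ribosome assembly and rRNA synthesis genes, 1 was called higher and none lower, with a median of -0.09 and 22 negative. At an unadjusted p under 0.05, 8 of the 30 were lower and 3 higher, against 1963 and 2267 of all 11692 tested loci. The call was *Nop10*, of the H/ACA particles that modify rRNA, at 155, 147 and 134 FPKM in TG and 113, 112 and 91.3 in WT (log2 fold change 0.47 ± 0.11, SE, adjusted p = 0.0318). Of 14 genes of growth control 2 were called higher and none lower, with a median of 0.01. The shares over all tested loci were 11.6% called higher and 7.03% lower. *Mtor*, the kinase that acts on TOP mRNAs, was 21.1, 20.1 and 21.9 in TG and 10.2, 10.7 and 10.3 in WT (log2 fold change 0.95 ± 0.07, SE, adjusted p = 0.000654), and *Tsc2*, which restrains it, was 27.9 ± 1.68 in TG and 18.7 ± 1.43 in WT (SD, n = 3, adjusted p = 0.0070). For *Mtor* the 3 mice of each genotype lay within 2 FPKM of one another. *Pdcd4*, a translation inhibitor, was at -0.34 on the log2 scale (adjusted p = 0.10).

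Proteins of the mitochondrial ribosome, which are encoded in the nucleus by separate genes, ran the other way. Of 75 tested, 37 were called higher and none lower, 73 had a positive fold change and the median was 0.36, against -0.24 for the 73 tested canonical cytosolic members. Of all 11692 tested loci, 11.6% were called higher and 7.03% lower. At an unadjusted p under 0.05 the mitochondrial genes gave 55 higher and 0 lower, against 2267 and 1963 of all 11692 tested loci. All TG values lay above all WT values at 58 mitochondrial and at 0 canonical cytosolic genes, and below them at 0 and 35. The shares over all tested loci were 22.8% above and 20.1% below. These counts are a description, and no test of the difference between both sets was made.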

How the data were processed

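Total RNA from iWAT of 3 TG and 3 WT mice was sequenced by the authors as single-end reads of 100 bases from TruSeq libraries. Per the labels and the study's methods, reads were mapped to mm10 with TopHat2 2.0.9 and Bowtie2 2.1.0 and deposited as FPKM from Cufflinks 2.2.1 (CASAVA 1.8.2 is named too). Annotation and options are not given in the sources used here. FPKM keeps no read depth, so no counting error can be given.

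Log2(FPKM + 1) was fitted with limma 3.58.1 (R 4.3.3; eBayes with trend) for loci with a mean over 1 FPKM in at least 1 genotype, and p-values were adjusted by Benjamini-Hochberg over 11692 loci. A pseudocount of 1 understates changes of low genes. The fit was tested on simulated data. The smallest two-sided exact p of 3 against 3 is 0.1, as for *Hlx* (log2 fold change 3.51, limma adjusted p = 0.000106, exact permutation p = 0.1). Member loci were compared with GENCODE vM21, and promoters came from RefSeq (GRCm38.p6). Protein sequences were not used here, and the values of some genes are not reported here, although counts and medians include them.

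Members and lists were chosen with earlier results of these data known. Named members were all called ones, the 5 largest rises and falls, the 5 highest and 5 lowest canonical levels, and paralogs above 0, with at most 3 genes of other lists by size of change, and genes named beyond this rule were chosen after their values were seen. Same-numbered TG and WT mice deviated with correlations of 0.013, 0.034 and 0.070, so numbers were not taken as pairs. For differently numbered mice they ran from -0.19 (TG 3 with WT 2) to 0.13 (TG 1 with WT 2). Which mice shared a litter is not given in the sources used here, so pairing by litter could not be entered. Alternatives comprised another pseudocount, filter, scaling, weights, the replicate block, each mouse left out and subsets of members. Mice of 1 genotype were treated as separate animals.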

Additional observations from a re-analysis of the deposited data

How the results depend on the processing

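The count of 13 members lower in TG became 35 with quantile normalization (median log2 fold change -0.40), 21 with sample quality weights, 6 without members on overlapping loci, 3 at an adjusted p under 0.01, and 3 to 16 with 1 mouse left out, when the median ran from -0.28 to -0.18. It was -0.14 without members on overlapping loci. With the replicate block 12 were lower and 1, *Rpl39l*, was higher (adjusted p = 0.0183), while the mice share only a number. The other settings, with a pseudocount of 0.1, filter, median-ratio scaling, eBayes without trend, 1 row a symbol, and members with 50% or more unique windows (chosen after seeing the data), gave 9 to 16. Quantile normalization moved the medians of the rest of the large subunit to -0.38 (-0.26 to -0.18 with 1 mouse left out), the head and body of the small subunit to -0.41 and -0.46, the other TOP genes to -0.40 and growth control to -0.067. The share of FPKM differed by -0.508 points without overlapping loci (means of 1.93% in TG and 2.44% in WT). With the 100 highest other loci removed it differed by -1.42 points (4.28% and 5.70%). The median of all loci shifted little, from -0.01 to -0.03 with quantile normalization. Signs reversed in genes that were not called. With 1 mouse left out, log2 fold changes ran from -0.14 to 0.020 for *Rpl41* (0.012 without TG 1), -1.54 to 0.076 for *Rpl36*, -0.15 to 2.63 for *Rpl12*, -0.031 to 0.30 for *Rps4y2*, -0.098 to 0.13 for *Rpl7l1* (-0.0048 without TG 1) and -0.25 to 0.23 for *Rpl22l1* (-0.091 without TG 2, -0.0019 without TG 3). Sample weights gave -0.035 for *Rps4y2* and -0.0036 for *Rpl7l1*, and quantile normalization gave -0.15 for *Rps27l*. The cause was not tested, and 3 mice a genotype limit what can be called.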
